A study of Mus musculus with 18 samples.

Results

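Aging within LT-HSCs was followed by comparing long-term hematopoietic stem cells (LT-HSCs) of aged and young mice, which make up 6 of the 18 libraries of the series. The young group held 3 LT-HSC libraries from mice of 2 to 3 months and the aged group 3 from mice of 23 to 25 months. The libraries were chosen by their labels, with no measured value. All mice carried the Hoxb5-tri-mCherry reporter, in which mCherry follows the expression of Hoxb5, on a C57BL/6J background. LT-HSCs are the Hoxb5-positive cells of the immunophenotypically defined HSC fraction of bone marrow. The Hoxb5-negative cells of that fraction are short-term HSCs (ST-HSCs), and the undivided fraction is called bulk-HSCs. The other 12 libraries are ST-HSCs and bulk-HSCs of the same ages, with 3 libraries each. The sources do not say how many mice stand behind a library or whether libraries came from separate mice, so p-values measure the spread between these libraries, which may be technical.

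LT-HSCs sustain blood formation for life. They divide rarely and are held in the bone marrow by adhesion molecules and receptors for signals from their niche. With age, HSCs become more numerous and each one contributes less to blood, and transcripts shared with platelets and megakaryocytes are known to become more abundant in them. In bulk RNA, fewer cells of a type and less RNA per cell cannot be told apart.

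The 6 LT-HSC libraries held between 16495048 and 19778541 counts on genes. Young libraries detected 11665 to 13876 genes and aged libraries 13688 to 14016. Among 9653 abundant genes, those with a median of at least 200 counts over all libraries, young replicates 1, 2 and 3 had 0 counts for 46, 1 and 163, and aged libraries for 2 to 6. Libraries of one age were less alike in young mice. Spearman's rank correlation between pairs, across genes, was 0.902 to 0.937 in young and 0.961 to 0.964 in aged LT-HSCs. The markers of HSCs were present at both ages. Kit, the stem cell factor receptor, had 1138 to 1286 CPM (the count relative to the TMM-scaled library size) in young and 1075 to 1319 in aged libraries. Mecom, a transcription factor needed for HSC maintenance, had 341 to 356 and 302 to 358 CPM. Of the 10 HSC markers, 1, Procr, was higher in every aged library and 1, Hlf, lower. Procr had 129, 128 and 138 CPM in young and 157, 143 and 153 CPM in aged libraries. Hlf had 1190, 1098 and 1025 CPM in young and 903, 976 and 834 CPM in aged libraries. The 10 markers summed to 3764 to 4147 CPM in young and 3349 to 3760 CPM in aged libraries, without overlap. Hoxb5 had 40.3, 8.77 and 8.20 CPM in the young libraries and 18.4, 24.6 and 26.0 in the aged libraries, and the groups overlapped. S100a8 and Mpo, which mark neutrophils, and Cd3e, which marks T cells, had 0 counts in all 6 libraries. The 7 neutrophil markers measured summed to 0 to 2.81 CPM in young and 0 to 10.3 CPM in aged libraries. For 7 T and NK cell markers the sums were 0 to 3.27 and 0.934 to 2.67 CPM. Those of 7 B cell markers were 18.8 to 19.8 and 12.9 to 15.4 CPM, mostly Cd79b. Those of 7 monocyte and macrophage markers were 126 to 133 and 99.7 to 163.5 CPM, mostly Lyz2. The 8 erythroid markers summed to 0 to 7.2 CPM in young and 8.73 to 25 CPM in aged libraries, with Car1 at 0 in all 6.

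Of 12808 tested genes, 57 (0.445%) changed with age in LT-HSCs, 39 (0.304%) to a higher level and 18 (0.141%) to a lower one (edgeR's quasi-likelihood test, Benjamini-Hochberg adjusted p under 0.05). At an unadjusted p under 0.05 there were 1129 genes (8.81%). DESeq2, an alternative to edgeR, called 290 of the 12808, 171 higher and 119 lower, the background for its list counts below. Changes are given as log2 fold changes, aged over young, ± their standard error from edgeR, with adjusted p from that test. Their median was 0.036 over all tested genes, 1.18 over the 39 and −1.22 over the 18. Each of the 57 had young and aged libraries that did not overlap. Over all tested genes every aged library lay above every young one for 1310 (10.2%) and below for 754 (5.89%). The number called rested on single libraries. It was 27, 182 and 42 without young replicate 1, 2 or 3, and 17, 15 and 20 without aged replicate 1, 2 or 3. The 9 genes Sdpr, Trim47, Scd2, Itgb3, Myh10, Plek, Col16a1, Aldh1a1 and Fyb kept their call in each of these 6 fits. Those fits still took the spread from ST-HSC and bulk-HSC libraries too. With only the LT-HSC libraries fitted, 9 genes were called, 6 of them among the 57. Of the genes just named, only Plek, Aldh1a1 and Fyb kept their call there.

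**Figure D1:**
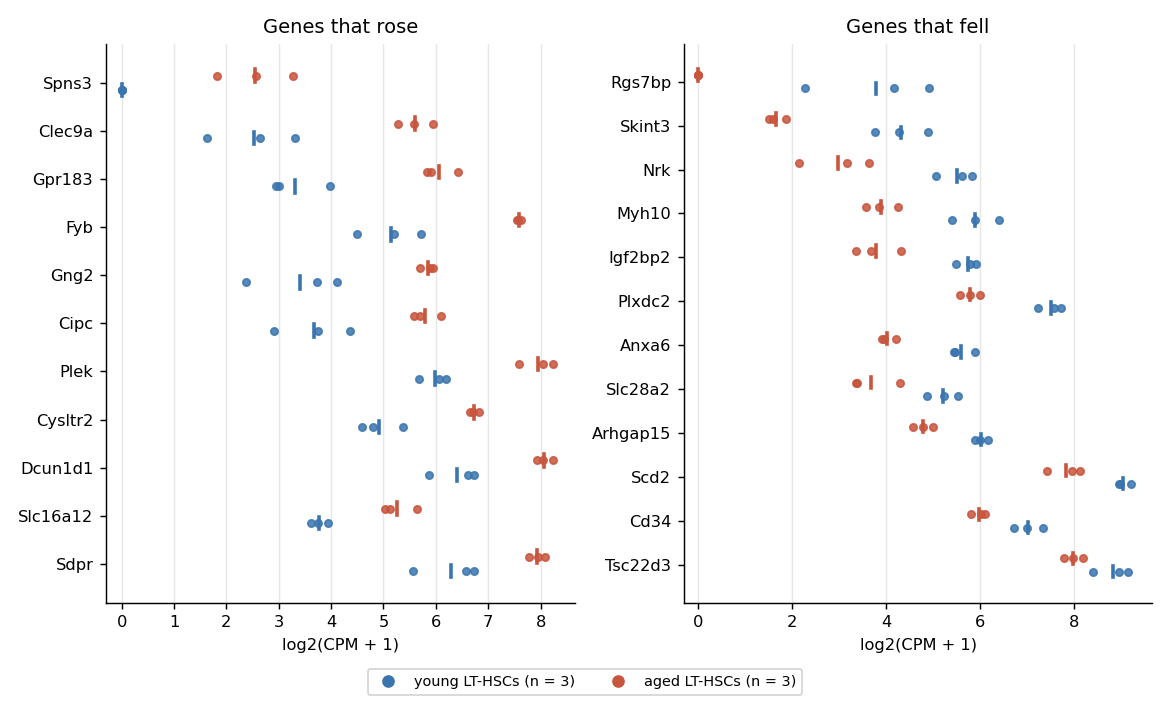
Level of 11 of the 12 genes that rose most and of the 12 that fell most in LT-HSCs, as log2(CPM + 1); each point is 1 library and each bar the mean of 3. Young (blue) and aged (red) libraries do not overlap for any of the 23 genes, Spns3 is at 0 in the 3 young libraries and Rgs7bp at 0 in the 3 aged libraries.

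Receptors and signalling adaptors of blood cells led the rises. Fyb encodes an adaptor protein that links immune receptors and integrins to the actin cytoskeleton, and lies on chromosome 15 of mm10 from 6522853 to 6663313. It had 35.6, 51.8 and 21.7 CPM in the young libraries and 198, 187 and 189 CPM in the aged libraries. The aged libraries lay within a narrow range, far above the highest young one. Fyb rose by 2.39 ± 0.29 (edgeR, adjusted p = 0.00152). Plek, on chromosome 11 from 16971206 to 17052381, encodes pleckstrin, a substrate of protein kinase C in platelets and leukocytes. Its level was 50.2, 65.6 and 72.3 CPM in young and 300.5, 262 and 192 CPM in aged libraries. Plek had the smallest adjusted p of the 57 genes (log2 fold change 2.00 ± 0.21, edgeR, adjusted p = 0.000378). Plek, Fyb and Aldh1a1 kept their call in all 17 alternative fits.

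Several of the genes that rose encode G protein coupled receptors or parts of their pathway. Gpr183, on chromosome 14 from 121952551 to 121965195, is the receptor for oxysterols that guides immune cell positioning. It had 7.08, 6.76 and 14.8 CPM in young and 85.1, 59.1 and 55.9 CPM in aged LT-HSCs (log2 fold change 2.80 ± 0.45, edgeR, adjusted p = 0.00942). Cysltr2, a receptor for cysteinyl leukotrienes, had 26.7, 40.4 and 23 CPM in young and 112, 104 and 99.0 CPM in aged libraries. For both receptors every aged library lay above every young one, and the aged libraries of Cysltr2 lay close together. Cysltr2 rose by 1.80 ± 0.33 (edgeR, adjusted p = 0.0197). Gng2, a G protein gamma subunit, had 12.3, 4.21 and 16.3 CPM in young and 58.2, 60.4 and 51.0 CPM in aged libraries. It rose by 2.37 ± 0.49 (edgeR, adjusted p = 0.0368). Rgs18, a regulator of G protein signalling found in platelets and their precursors, rose by 0.70. F2rl3, which encodes the thrombin receptor PAR4, rose by 1.10. Rgs7bp, which anchors regulators of G protein signalling at the membrane, went the other way. It had 17, 29.0 and 3.81 CPM in young libraries and 0 counts in each aged library, which is at least 102.6-fold lower relative to the young mean of 16.6 CPM. That call was lost without young replicate 1 or without any 1 aged library. Of 63 tested genes on a list of G protein coupled receptors and RGS proteins, edgeR called 3 higher and 1 lower and DESeq2 7 and 2. Without overlap 14 (22.2%) lay above their young level and 4 (6.35%) below, against 10.2% and 5.89% of all tested genes, so the share below was near that of all genes.

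Some genes of cell adhesion and of the platelet lineage were among the 39. Itgb3, on chromosome 11 from 104608000 to 104670476, encodes integrin beta 3, which pairs with alpha IIb on platelets. It had 207, 145 and 252 CPM in young and 401, 472 and 476 CPM in aged libraries (log2 fold change 1.16 ± 0.17, edgeR, adjusted p = 0.00477). Itga6, integrin alpha 6, a receptor for laminins, rose by 0.81, and Alcam, an adhesion molecule of the immunoglobulin family, by 1.14. Col16a1, a collagen associated with fibril-forming collagens, rose by 0.95. Of 58 tested genes for adhesion and homing, edgeR called Itga6, Itgb3 and Alcam higher and Cd34 lower, and the median of the list, 0.10, did not keep its sign over the alternatives. Among 45 tested platelet and megakaryocyte genes edgeR called Itgb3, F2rl3 and Plek higher and 0 lower, and DESeq2 called 6 higher and 1 lower. In that list 12 genes (26.7%) lay above their young level without overlap and 3 (6.67%) below, against 10.2% and 5.89% of all tested genes, and its median log2 fold change was 0.34. Selp, which encodes P-selectin, had 41.7, 89.9 and 127 CPM in young and 346, 335 and 410 CPM in aged libraries. The groups did not overlap, and the test gave an adjusted p of 0.0534 with edgeR (log2 fold change 2.07, standard error 0.45), while DESeq2 and limma-voom called it. The 7 megakaryocyte markers summed to 28.2 to 50.4 CPM in young and 49.4 to 59.4 CPM in aged libraries, Gp6 was at 0 in all 6, and the part of such cells in these results was not tested.

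Clec9a and Clec1a, neighbouring C-type lectin receptor genes on chromosome 6, both rose. Clec9a, from 129408862 to 129424763, had 8.88, 5.24 and 2.11 CPM in young and 47.2, 60.7 and 37.9 CPM in aged libraries (log2 fold change 3.16 ± 0.59, edgeR, adjusted p = 0.0197). It overlaps Clec1b on the same strand, so counts of the pair may have been split between them. Clec1a, from 129424772 to 129452000, rose by 1.46. H2-Aa, a chain of the class II antigen-presenting molecule, had 72.7, 67.5 and 37.4 CPM in young and 121, 137 and 139 CPM in aged libraries. It rose by 1.16 ± 0.19 (edgeR, adjusted p = 0.00998). H2-Ab1, its partner chain, had 37.9, 24.0 and 37.7 CPM in young and 71.0, 57.0 and 80.8 CPM in aged libraries, and did not pass (edgeR, adjusted p = 0.162). Of the 8 dendritic cell markers Siglech, Itgax, Cd209a and Xcr1 were at 0 in all 6 libraries, and the markers summed to 102 to 136 CPM in young and 202 to 226 CPM in aged libraries, most of it from this class II pair. H2-Aa and H2-Ab1 are themselves 2 of those 8 markers.

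Metabolic and stress genes were also among the 39. Aldh1a1, on chromosome 19 from 20492715 to 20643465, encodes a retinaldehyde dehydrogenase used to mark stem cells. It had 107, 122 and 114 CPM in young and 346, 279 and 358 CPM in aged libraries (log2 fold change 1.52 ± 0.21, edgeR, adjusted p = 0.00404). Pfkfb3, which makes the activator of phosphofructokinase in glycolysis, rose by 1.38, and Ndrg1, a gene induced by low oxygen, by 0.81. Oxr1, which protects against oxidative damage, rose by 1.18. Slc16a12, a monocarboxylate transporter, rose by 1.59 and Aqp9, a channel for glycerol and water, by 1.57. Sdpr, also called cavin 2, an organiser of caveolae, had 105, 93.9 and 46.5 CPM in young and 219, 245 and 270 CPM in aged libraries and rose by 1.58 ± 0.23 (edgeR, adjusted p = 0.00567). Among transcription and chromatin factors, Cipc, an inhibitor of the circadian activator CLOCK, rose by 2.1, Irf2bpl by 1.47, the histone acetyltransferase Kat7 by 1.06, and Stat3, the transcription factor downstream of interleukin 6 family cytokines, by 0.55. Spns3 had 0 counts in each young library and 4.91, 8.62 and 2.52 CPM in the aged ones, which is at least 33.0-fold higher. Its mean was 12.4 CPM in young and 11.1 CPM in aged ST-HSCs, and 11.6 and 6.93 CPM in bulk-HSCs. Whether the 0 counts of young LT-HSCs are failed estimates was not tested. Spns3, Slc16a12, Kat7, Stat3, Dcun1d1 and, among the falls, Nrk lost their call whichever single LT-HSC library was left out.

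The 18 falls included genes of the cytoskeleton, of the cell membrane and of growth. Myh10, on chromosome 11 from 68691559 to 68816632, encodes nonmuscle myosin heavy chain IIB. It had 82.9, 58.6 and 41.4 CPM in young and 13.3, 10.9 and 17.9 CPM in aged libraries, and fell by 2.12 ± 0.32 (edgeR, adjusted p = 0.00655). Igf2bp2, an RNA-binding protein of fetal and growing tissues, had 59.6, 43.9 and 54.1 CPM in young and 19.0, 9.34 and 11.9 CPM in aged libraries. It fell by 1.97 ± 0.34 (edgeR, adjusted p = 0.0143). The young level of both genes was high in every library and the aged level low in every library. Plxdc2, a transmembrane protein, had 189, 150 and 209 CPM in young and 53.9, 46.4 and 63.1 CPM in aged libraries and fell by 1.74 ± 0.27 (edgeR, adjusted p = 0.00748). Anxa6, a calcium-dependent membrane-binding annexin, had 42.9, 58.2 and 42.8 CPM in young and 17.6, 14 and 14.5 CPM in aged libraries, and fell by 1.64. Skint3 fell by 3.18 and Nrk, a kinase of the germinal centre kinase family, by 2.57. Arhgap15 and Arhgap4, GTPase-activating proteins for small GTPases of the cytoskeleton, fell by 1.26 and 0.74, and Arhgap4 overlaps Naa10 on the same strand. Cat, which encodes catalase, fell by 0.67.

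Cd34, on chromosome 1 from 194938819 to 194961279, encodes a sialomucin whose absence from the surface marks adult mouse LT-HSCs. It had 127, 105 and 161 CPM in young and 67.6, 54.8 and 63.9 CPM in aged libraries, and fell by 1.08 ± 0.20 (edgeR, adjusted p = 0.0206). Tsc22d3, a target of glucocorticoids, had 564, 337 and 493 CPM in young and 252, 218 and 288 CPM in aged libraries and fell by 0.88. Ccnd2, cyclin D2, which drives entry into the cell cycle, had 791, 881 and 843 CPM in young and 566, 581 and 581 CPM in aged libraries. It fell by 0.54 ± 0.11 (edgeR, adjusted p = 0.0368), the smallest of the 18 falls. Among 31 tested G1 cyclins, CDKs and CDK inhibitors it was the only gene called by edgeR, DESeq2 or limma-voom.

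Most of these age effects had the same direction in the other fractions. Of the 39 genes that rose in LT-HSCs, 36 had a positive log2 fold change in ST-HSCs and 37 in bulk-HSCs. Of the 18 that fell, all 18 had a negative one in both. In ST-HSCs 80 genes (0.625%) rose and 29 (0.226%) fell, and in bulk-HSCs 196 (1.53%) rose and 57 (0.445%) fell. The LT-HSC and ST-HSC rises shared 22 genes, which is 56.4% of the former and 27.5% of the latter, and the falls shared 9, or 50% and 31%. With bulk-HSCs, which contain LT-HSCs, the rises shared 26 genes (66.7% and 13.3%) and the falls 10 (55.6% and 17.5%). Altogether 19 genes rose in all 3 fractions, among them Gpr183, Fyb, Plek, Cysltr2, Sdpr, Aldh1a1, Itgb3, Itga6 and Alcam. Mlec, Tsc22d3, Cd34, Scd2, Anxa6 and Plxdc2 fell in all 3.

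**Figure D2:**
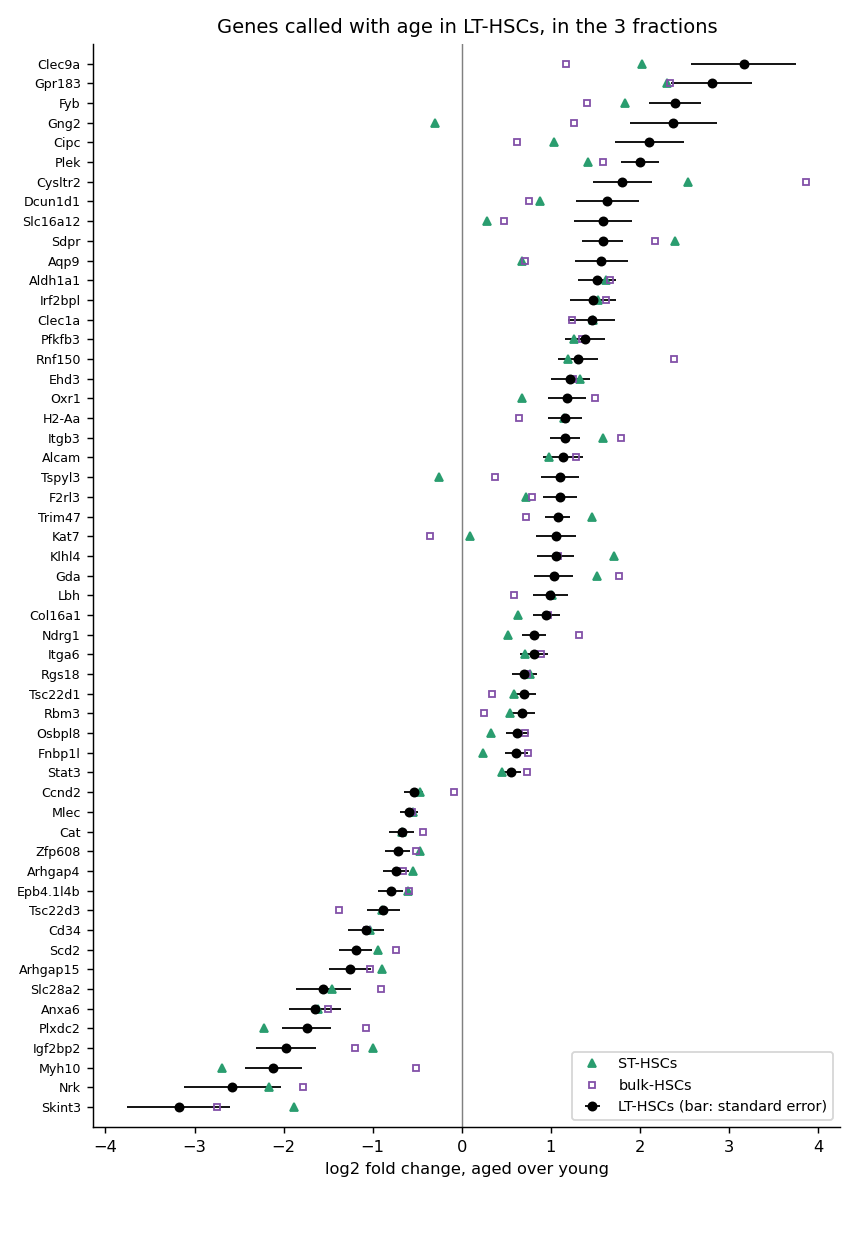
Log2 fold change with age, aged over young, in LT-HSCs (black, bar: standard error), ST-HSCs (green) and bulk-HSCs (purple) for 54 of the 57 genes called in LT-HSCs; Spns3 and Rgs7bp, at 0 in one age, are among those left out. Gng2 and Tspyl3 in ST-HSCs and Kat7 in bulk-HSCs lie on the other side of 0 from LT-HSCs.

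Whether the change with age differed between fractions was tested directly. Of 200 genes changed 4-fold in simulated LT-HSCs, edgeR called 91 against ST-HSCs and 95 against bulk-HSCs, so uncalled genes may still differ. Between LT-HSCs and ST-HSCs edgeR called 0 genes (0%), with 502 (3.92%) at an unadjusted p under 0.05, while DESeq2 called 83 and limma-voom 0. Between LT-HSCs and bulk-HSCs edgeR called 1 gene (0.00781%), Ttll1, with 746 (5.82%) at an unadjusted p under 0.05, while DESeq2 called 122 and limma-voom 0. Tspyl3 came closest to a difference from ST-HSCs among the genes called in LT-HSCs. It had 21.4, 21.4 and 21 CPM in young and 49.9, 46.5 and 41.1 CPM in aged LT-HSCs, whereas its mean in ST-HSCs was 45.7 CPM in young and 38.3 in aged mice (difference of the log2 fold changes 1.36 ± 0.30, edgeR, adjusted p = 0.444). Among the genes called in LT-HSCs, Kat7 came closest to a difference from bulk-HSCs. Its mean was 102 CPM in young and 79.8 CPM in aged bulk-HSCs, against 56.6 and 118 CPM in LT-HSCs (difference 1.41 ± 0.31, edgeR, adjusted p = 0.261). Vwf, which encodes von Willebrand factor, had 560, 643 and 754 CPM in young and 697, 830 and 1050 CPM in aged LT-HSCs. Its log2 fold change was 0.40 for LT-HSCs and 1.83 for ST-HSCs, and the difference of −1.43 (standard error 0.28) did not pass (edgeR, adjusted p = 0.295).

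Of the 26 gene lists, lipid and cholesterol genes had the largest share of members with a lower level in every aged LT-HSC library. Cells build cholesterol from acetyl-CoA through mevalonate, squalene and lanosterol. The transcription factor SREBP2, the product of Srebf2, turns on these enzymes when sterols are scarce, and SREBP1 does so for fatty acid synthesis. Of 70 tested lipid and cholesterol genes, 25 (35.7%) lay below their young level in every aged LT-HSC library, against 5.89% of all tested genes. Above it lay 6 (8.57%), against 10.2% of all tested genes. At an unadjusted p under 0.05, 21 were lower and 4 higher. All 26 lists were written with earlier results of these data known, so such shares are no independent evidence. The median of the list was −0.20 for LT-HSCs, −0.21 for ST-HSCs and −0.09 for bulk-HSCs. Scd2, the one gene of the list that passed the test, had 588, 501 and 497 CPM in young and 248, 276 and 171 CPM in aged libraries. Scd2, on chromosome 19 from 44293674 to 44306864, encodes a stearoyl-CoA desaturase, which makes monounsaturated fatty acids. It fell by 1.19 ± 0.19 (edgeR, adjusted p = 0.00748) and kept its call without each LT-HSC library in turn. The call was lost with only the LT-HSC libraries fitted.

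**Figure D3:**
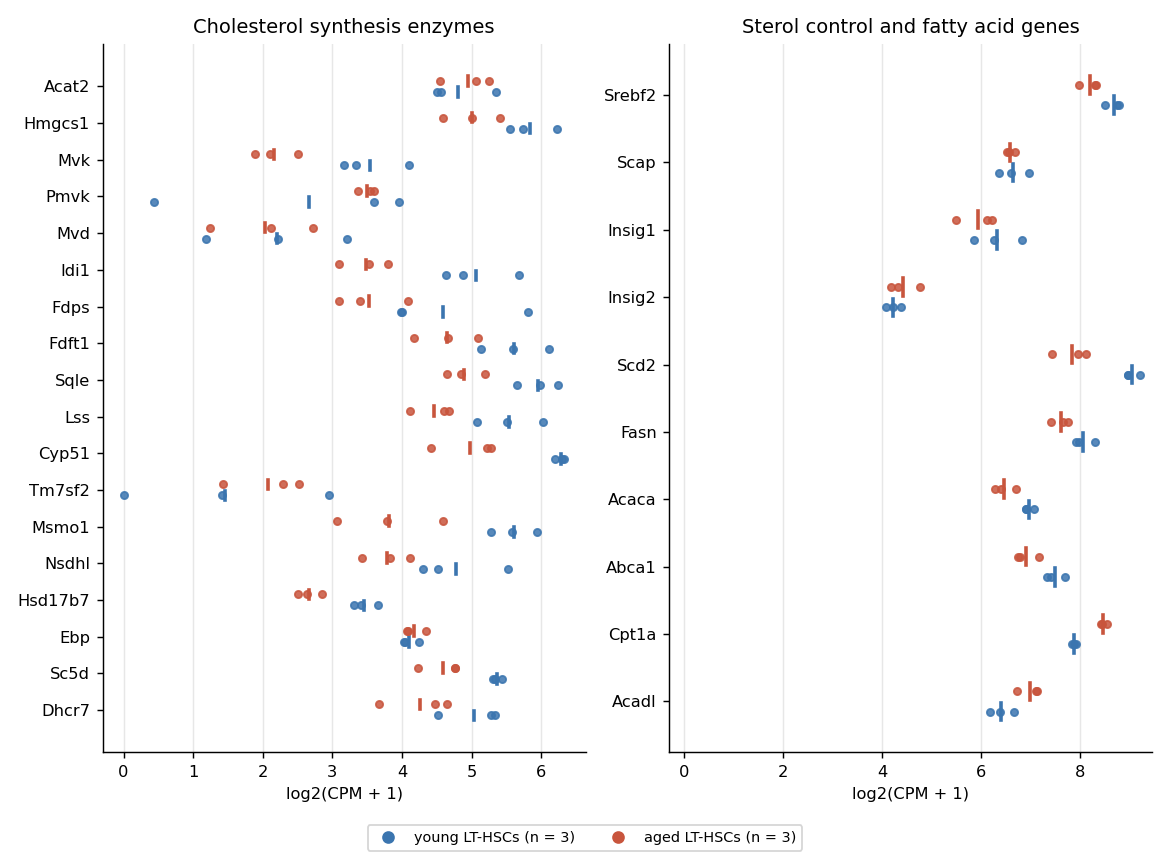
Level of 18 cholesterol synthesis enzymes in pathway order (left) and of genes of sterol control and fatty acid metabolism (right) in LT-HSCs, as log2(CPM + 1); each point is 1 library and each bar the mean of 3. For 11 of these 18 enzymes every aged library (red) lies below every young one (blue), while Acat2, Pmvk, Mvd, Fdps, Tm7sf2, Ebp and Dhcr7 overlap.

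The 20 enzymes from acetyl-CoA to cholesterol were looked at by themselves after these values were seen, so they are described without a test. Their summed level was 842, 841 and 871 CPM in the young and 466, 519 and 389 CPM in the aged LT-HSC libraries. Their median fold change on the log2 scale was −0.93 for LT-HSCs, −0.46 for ST-HSCs and −0.31 for bulk-HSCs. In LT-HSCs 0 of the 20 passed edgeR's test across all genes, and 13 were lower at an unadjusted p under 0.05. Hmgcs1, which makes the precursor of mevalonate, had 52.3, 74.1 and 45.7 CPM in young and 41.6, 31.1 and 23.1 CPM in aged libraries. Its groups did not overlap, and the same held of Idi1, Fdft1 and Sqle on the way to squalene epoxide. Cyp51, lanosterol demethylase, had 72.7, 79.0 and 78.0 CPM in young and 38.0, 36.2 and 20.4 CPM in aged libraries (log2 fold change −1.28 ± 0.29, edgeR, adjusted p = 0.0596). Msmo1, the next demethylase, had 60.5, 46.9 and 38.0 CPM in young and 12.8, 23.1 and 7.34 CPM in aged libraries (log2 fold change −1.75 ± 0.41, edgeR, adjusted p = 0.0741). Srebf2 itself had 443, 363 and 425 CPM in young and 314, 320 and 249 CPM in aged libraries. With DESeq2 in place of edgeR 10 genes of the lipid list were called lower, among them Msmo1, Sqle, Fasn, Scd2, Idi1, Srebf2 and Cyp51, and 2, Acadl and Cpt1a, higher. Cpt1a, which admits fatty acids to mitochondria for oxidation, had 234, 229 and 240 CPM in young and 341, 344 and 371 CPM in aged libraries (log2 fold change 0.59 ± 0.14, edgeR, adjusted p = 0.0697). The age effect of the 20 enzymes did not pass a difference from ST-HSCs or bulk-HSCs, with smallest adjusted p values of 1.0 and 0.721 (edgeR).

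SREBP2 binds sterol regulatory elements, and 1 of the 15 enzyme promoters in the RefSeq promoter table held the letters TCACNCCAC on either strand, that of Hmgcs1. The same letters stood in 330 of 27025 promoters of 300 bases (1.22%), counting 1 per gene. The motif was chosen after the values were seen, and the stretch is shown because it is the promoter of a member of this group in which the element can be read. It is the plus strand of GRCm38.p6 at chr13:119690169-119690268, 5′ to 3′, upstream of the annotated start, and the capitals mark the match, which lies 137 to 129 bases before the start given by RefSeq.
Hmgcs1: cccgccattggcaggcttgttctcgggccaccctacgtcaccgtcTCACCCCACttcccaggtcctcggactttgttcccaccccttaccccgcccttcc

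DNA replication genes had the lowest median of the 26 lists. Of 55 tested members edgeR called 0, with 7 lower at an unadjusted p under 0.05, and DESeq2 called Mcm6, Mcm4, Mcm3, Dut and Chaf1a lower. Without overlap, 8 (14.5%) lay below their young level and 0 above, against 5.89% and 10.2% of all tested genes, and the median was −0.30. Mcm6, a subunit of the replicative helicase, had 198, 235 and 220 CPM in young and 133, 96.8 and 159 CPM in aged libraries (log2 fold change −0.75 ± 0.19, edgeR, adjusted p = 0.101). Mcm2, Mcm3, Mcm4 and Mcm5 of the same complex also had lower levels in each aged library. Of 72 tested mitosis genes edgeR called 0, with an unadjusted p under 0.05 for 1 higher and 6 lower genes, and DESeq2 called 1 higher and 2 lower. Without overlap 3 (4.17%) lay above and 6 (8.33%) below, against 10.2% and 5.89% of all tested genes, and the median of −0.12 did not keep its sign over the alternatives.

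**Figure D4:**
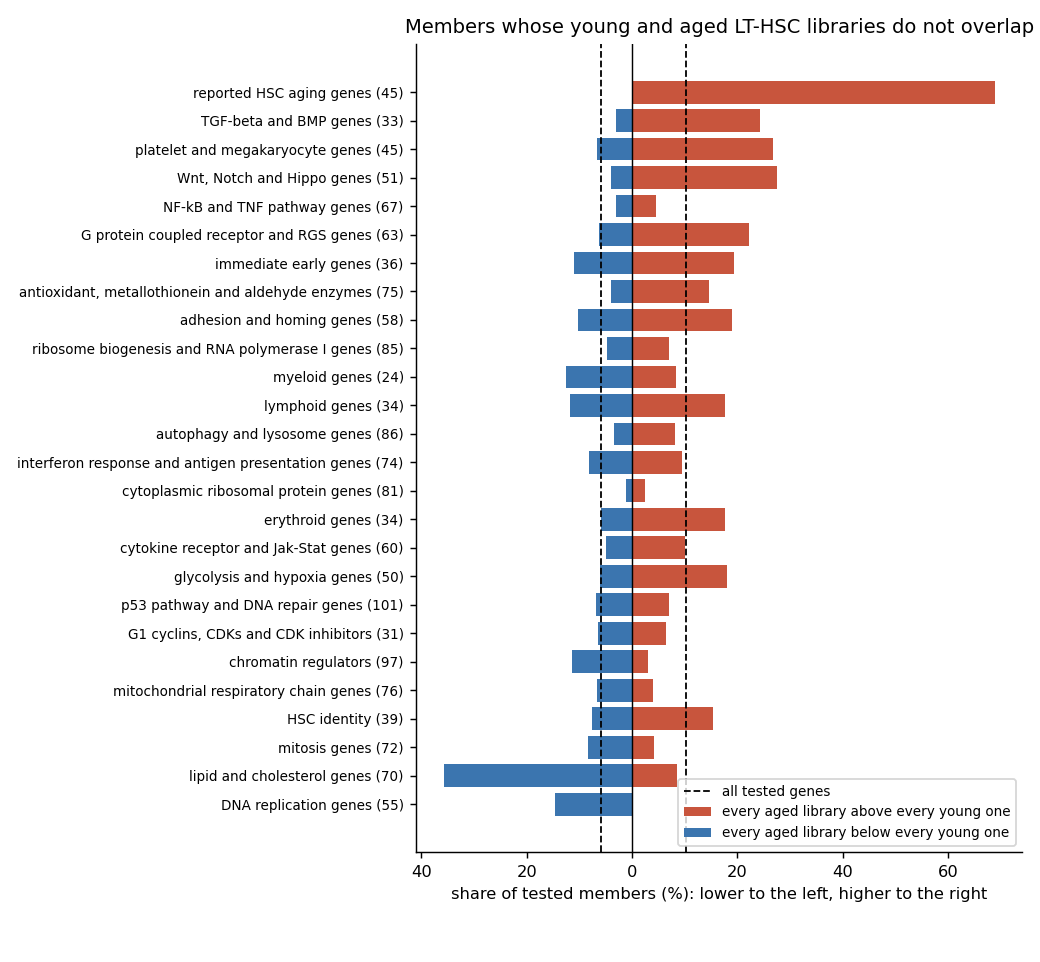
Share of the tested members of each of 26 gene lists (number tested in brackets) for which every aged LT-HSC library lies above (red, right) or below (blue, left) every young one, in percent; dashed lines give the share over all tested genes. The reported HSC aging genes reach 68.9% to the right and the lipid and cholesterol genes 35.7% to the left.

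Genes that earlier work reported to rise in aged HSCs lay on the other side. Of 45 tested, 9 rose and 0 fell in LT-HSCs, and 31 (68.9%) lay above their young level without overlap, against 10.2% of all tested genes. The median was 1.04, against 1.60 in ST-HSCs and 1.85 in bulk-HSCs. Since the list was written with earlier results of these data known, the direction of its genes here is no independent evidence. Nupr1, a stress-induced chromatin protein, had 17.1, 20.7 and 40.5 CPM in young and 69.2, 69.1 and 94.5 CPM in aged libraries, and did not pass (edgeR, adjusted p = 0.0734). TGF-beta and BMP genes had 0 called of 33 with edgeR, DESeq2 or limma-voom, and an unadjusted p under 0.05 for 5 higher genes and 1 lower gene. Without overlap, 8 (24.2%) lay above and 1 (3.03%) below, against 10.2% and 5.89% of all tested genes, and the median was 0.35. Bmpr1a, a BMP receptor, had 0, 14.8 and 5.04 CPM in young and 100, 73.2 and 81.5 CPM in aged libraries, with an adjusted p of 0.278 (edgeR). Wnt, Notch and Hippo genes had 0 called of 51 with edgeR, and 6 higher at an unadjusted p under 0.05, while DESeq2 called Fzd3 and Dll1 higher. Without overlap, 14 (27.5%) lay above and 2 (3.92%) below, against the same 10.2% and 5.89% of all tested genes. Several of these members, Wnt5a, Hes1, Dtx4 and Ajuba among them, had 0 counts in young replicates 1 and 3, which also had the most zeros among abundant genes. Whether those zeros carry the result was not tested.

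Lineage gene lists were too short for 0 calls to be told from the 0.445% called over all tested genes. Of 24 tested myeloid genes, 34 lymphoid genes and 34 erythroid genes edgeR called 0 in LT-HSCs, with medians of 0.07, 0.06 and 0.03. At an unadjusted p under 0.05 these lists held 2, 3 and 4 higher and 3, 3 and 0 lower genes. Over all tested genes, 8.81% passed that threshold in either direction, which is the share to set beside each unadjusted count in this paragraph. Without overlap 2 (8.33%) myeloid genes lay above and 3 (12.5%) below. For lymphoid genes these were 6 (17.6%) and 4 (11.8%), and for erythroid genes 6 (17.6%) and 2 (5.88%). Over all tested genes they were 10.2% and 5.89%. DESeq2 called 1 myeloid gene higher and 1 lower, 2 lymphoid genes higher, Mef2c among them, and 2 erythroid genes higher (Mt2 and Cd24a). Among 39 tested HSC identity genes Trim47 rose and Cd34 fell, and the median was −0.06. With edgeR 0 were called of 74 interferon response and antigen presentation genes, with an unadjusted p under 0.05 for 10 higher and 3 lower genes, and DESeq2 called 2 higher and 1 lower. Of 97 chromatin regulators 0 were called with edgeR, with 2 higher and 5 lower unadjusted, and DESeq2 called Tet3, Asxl1 and Kmt2a lower. Without overlap 3 (3.09%) of them lay above and 11 (11.3%) below, against 10.2% and 5.89% of all tested genes. NF-kB and TNF pathway genes (67), p53 pathway and DNA repair genes (101), respiratory chain genes (76) and autophagy and lysosome genes (86) had 0 called with edgeR, DESeq2 and limma-voom, and 4, 2, 1 and 7 higher and 1, 2, 2 and 2 lower unadjusted. Of 81 cytoplasmic ribosomal protein genes and 85 ribosome biogenesis genes edgeR called 0, with 4 and 6 higher and 1 and 3 lower unadjusted, and DESeq2 called 2 and 1. With edgeR the calls were Tsc22d3 among 36 immediate early genes, Stat3 among 60 cytokine receptor and Jak-Stat genes, Pfkfb3 and Ndrg1 among 50 glycolysis and hypoxia genes, and Aldh1a1 and Cat, in opposite directions, among 75 antioxidant, metallothionein and aldehyde enzymes. DESeq2 called 2 higher and 2 lower, 1 higher and 2 lower, 2 higher and 1 lower, and 5 higher and 1 lower genes of these lists. Over all 12808 tested genes its calls were 171 higher and 119 lower.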

How the data were processed

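RNA of sorted LT-HSCs, ST-HSCs and bulk-HSCs was depleted of ribosomal RNA and sequenced by the authors in 18 libraries. They aligned the reads to mm10 with HISAT2 and quantified them with StringTie 1.3.4d, and the submitters' processing notes also list SAMtools 1.7. The deposited table holds raw counts, as integers, for 24421 gene symbols. How StringTie coverage became whole counts, and the annotation, are not given in the sources used here, so a 0 in an abundant gene may be a failed estimate. All 18 columns were used and mapped to groups through the sample descriptions.

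The counts were analysed with edgeR 4.0.16, with limma 3.58.1 and DESeq2 1.42.0 as alternatives, in R 4.3.3. Library sizes were scaled with TMM factors. Testing was limited to 12808 genes whose mean reached 1 CPM across the libraries. The quasi-likelihood model held the 6 group means and left 12 residual degrees of freedom. Age effects per fraction, and their differences between fractions, were called at a Benjamini-Hochberg adjusted p under 0.05. A fold against a group at 0 is a lower bound set at 3 counts per library (0.147 to 0.176 CPM in LT-HSCs), which covers counting error only. Loci came from GENCODE M21, which matched 98.9% of the tested symbols. Genes were named if they were among the 12 largest rises or falls among called genes with at least 2 CPM and no overlap, were otherwise called, were called or among the 3 smallest p of a list, were markers or genes the study names, or had the 5 smallest p for a difference between fractions. The other lipid, sterol, replication, BMP, Wnt and aging genes were named after their values were seen. The members and lists were chosen with earlier results of these data known. The methods were tested on simulated data, in which DESeq2 called more unchanged genes than edgeR or limma-voom did, so DESeq2 counts are the less strict ones. The alternatives were RLE factors, library size alone, Rn45s left out, 3 filters, only the groups compared, a replicate block, detected genes per library as a covariate, DESeq2, limma-voom and each library left out. A few genes are not reported here by name.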

Additional observations from a re-analysis of the deposited data

Results flagged for a closer look

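Ttll1, a member of the tubulin tyrosine ligase-like family, was the single gene whose age effect differed between LT-HSCs and bulk-HSCs. It had 5.72, 9.16 and 20.8 CPM in young and 4.74, 5.55 and 6.87 CPM in aged LT-HSCs, and the groups overlapped. In bulk-HSCs it had 0 counts in each young library and a mean of 7.59 CPM in aged mice. The fitted difference of the log2 fold changes was −11.30 (edgeR, adjusted p = 0.0241), a size that depends on how the fit treats the zeros of young bulk-HSCs and is no bound. The call was lost in the fit on only the groups compared, with the replicate block, with limma-voom, and without young LT-HSC replicate 3, any 1 aged LT-HSC library or aged bulk-HSC replicate 2 or 3.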

How the results depend on the processing

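The count of 57 genes changed with age in LT-HSCs was 9 with only the groups compared, 23 with detected genes per library as a covariate and 290 with DESeq2, and 15 to 182 with each LT-HSC library left out. All 57 were among the 290, and the cause of these changes was not tested. With library size alone 33 rose and 23 fell, and with the replicate block, in which libraries share only a number, 43 rose and 34 fell, 77 in all. The deviations of same-numbered young and aged LT-HSC libraries correlated at 0.0012, 0.041 and 0.032, so the numbers were not taken to pair the libraries. For the difference between LT-HSCs and ST-HSCs, DESeq2 called 83 genes and leaving out 1 library gave 0 to 11. For the difference from bulk-HSCs the 1 call became 0 with only the groups compared, with the replicate block and with limma-voom, 7 with at least 10 counts in every LT-HSC library and 122 with DESeq2, and leaving out 1 library gave 0 to 20. None of the 57 genes changed sign in any of these fits. Their calls held in 645 of 967 refits and were lost in 322. Of the 26 list medians 12 kept their sign throughout. That of the lipid and cholesterol genes lay between −0.23 and −0.13, that of the DNA replication genes between −0.48 and −0.22. In simulated data edgeR called 126 of 200 genes changed 4-fold in LT-HSCs. Smaller changes were not simulated, and 3 counts set the lowest level that could be seen.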

Other observations

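The RNA of all 6 LT-HSC libraries carried the Y-linked transcripts Ddx3y, Eif2s3y, Kdm5d and Uty, at 43.9 to 118 CPM per gene and library. Xist had 0 to 17.1 CPM in young and 6.81 to 14.6 CPM in aged libraries. The sex of the mice is not given in the labels.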
